A study of Mus musculus with 2 samples.

Results

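The laminin chains and integrin subunits of the mouse heart were described here gene by gene. They were all protein-coding genes whose symbol names a laminin alpha, beta or gamma chain or an integrin alpha or beta subunit. The rule found 37 genes, 11 laminin chains and 26 integrin subunits, of 21951 protein-coding genes in the tables. The rule reads gene names and no measured value, although it was set with earlier results of these data known. Total RNA came from hearts of adult female 5xFAD/CAST mice aged 8 to 10 months, with 300 ng of RNA per library and synthetic ERCC spike-in RNAs added. 5xFAD mice carry mutant human amyloid precursor protein and presenilin transgenes under the Thy1 promoter, which is chiefly active in neurons, and CAST denotes an inbred strain derived from wild mice. Both libraries carry the same genotype label and form 1 group of 2 replicates, so no wild-type, transgene-free or other control heart can be set against them and no test between groups was made. The labels give each replicate its own biosample but 1 shared donor identifier, so every SD below measures the spread between these 2 libraries, which may be technical. Replicate 1 held 45599940.1 and replicate 2 held 40801298.9 expected counts, which are the authors' estimates of reads per gene. Levels are in TPM, a relative abundance per unit of transcript length, rescaled to the mouse genes without spike-ins, and are given as replicate 1 and replicate 2 or as mean ± SD (n = 2).

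Laminins are the cross-shaped glycoproteins of basement membranes, each assembled from an alpha, a beta and a gamma chain. Integrins are receptors made of an alpha and a beta subunit that hold cells to laminin, collagen, fibronectin or other cells and link them to the actin cytoskeleton. In heart muscle, laminin with the Lama2 chain surrounds each fibre, and the integrin of Itga7 and Itgb1 and the dystroglycan complex are its main receptors. Vessels have laminin with the Lama4 and Lama5 chains.

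Heart muscle genes were abundant, as the label of the tissue requires, with the ventricular myosin light chain Myl2 at 7882 ± 629 TPM and the adult myosin heavy chain Myh6 at 7725 ± 27.7 TPM. All 8 endothelial marker genes were at 1 TPM or more in both libraries, led by Egfl7 (40.5 ± 1.44) and Eng (39.5 ± 2.61). So were all 8 fibroblast genes, led by the actin-severing protein Gsn (267.4 ± 0.692) and the proteoglycan Dcn (119.0 ± 5.71), and all 6 pericyte genes, led by the channel subunit Abcc9 (82.8 ± 0.264) and Rgs5 (81.4 ± 2.68). In such mixed tissue, fewer cells of a type and less RNA per cell cannot be told apart.

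Of the 37 genes, 20 (54.1%) were at 1 TPM or more in both libraries, beside 10779 (49.1%) of all protein-coding genes. At 10 TPM or more in both were 10 genes (27.0%), beside 4306 protein-coding genes (19.6%). The 10 were Lama5, Lama2, Lama4, Lamb2, Lamb1, Lamc1, Itga7, Itgav, Itgb1 and Itgb5. Another 15 genes were under 1 TPM in both libraries, and Itga8 and Itga2b crossed that level in 1 library only. Every one of the 37 had a count above 0 in both libraries. The median level was 1.14 TPM in replicate 1 and 1.92 TPM in replicate 2, beside 0.986 and 1.06 over all protein-coding genes. The genes together took 74675.6 and 68082.2 counts, which was 0.164% and 0.167% of the endogenous total. The set at 10 TPM or more differed in the authors' direct transcript tables, a second quantification of the same reads. There Lama4 (9.56 and 11.7 TPM) and Itgav (6.24 and 6.80) were not in it, and Itga6 (10.4 and 14.6) and Itga9 (12.1 and 19.7) were.

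**Figure D1:**
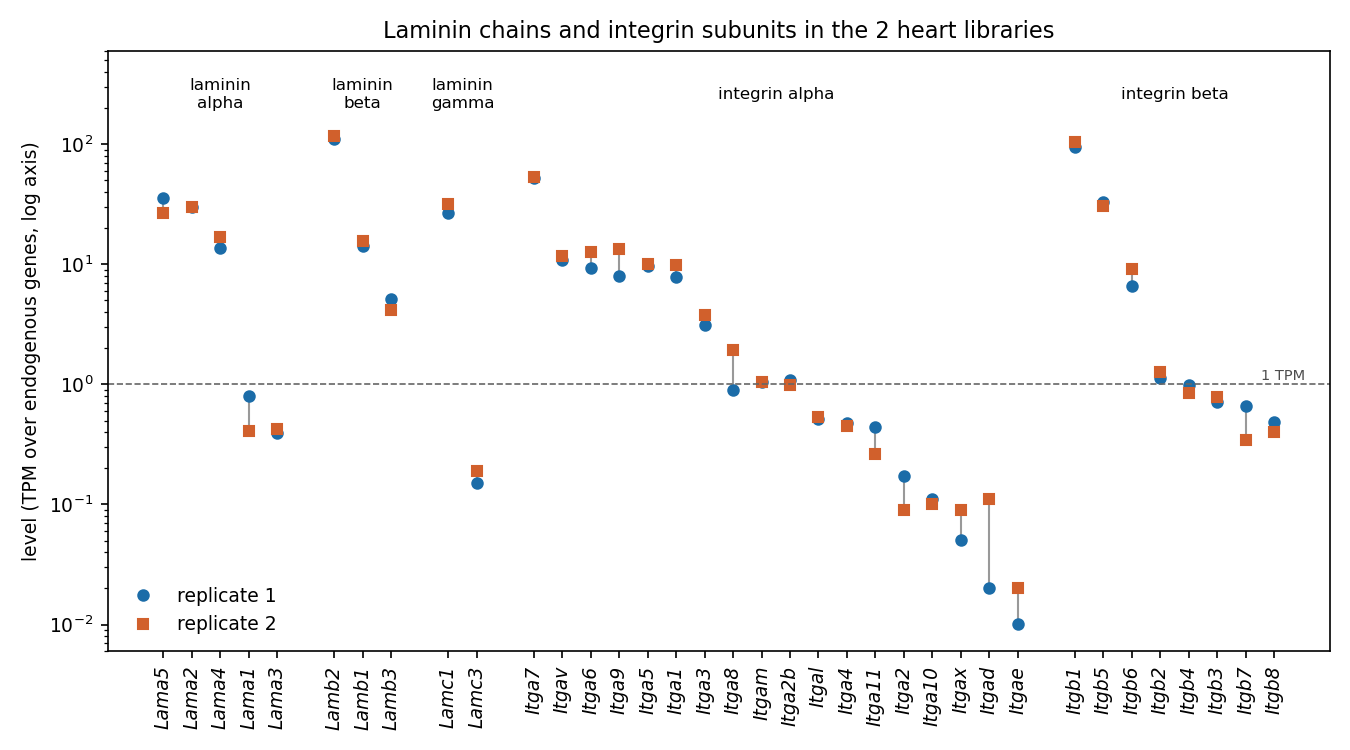
Level in TPM over endogenous genes (log axis) of the laminin and integrin genes reported here, with circles for replicate 1, squares for replicate 2 and a line joining them. Lamb2 and Itgb1 stand highest in their classes at about the same height in both libraries, and the dashed line marks 1 TPM.

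The plot of levels by gene shows 1 leading gene in the laminin beta, integrin alpha and integrin beta classes, and a pair of leading genes in the laminin alpha class. Summed over each class, laminin beta chains stood at 134.1 ± 4.69 TPM and laminin alpha chains at 77.1 ± 4.21. The beta chains were thus 1.74 ± 0.156 times the alpha chains in summed TPM. That ratio was 2.47 ± 0.217 in the direct transcript tables. On the long transcripts defined below it was 2.02 ± 0.0640, and 1.90 ± 0.0506 in the direct tables, so the 2 quantifications were closer on that basis. Integrin alpha subunits summed to 113.3 ± 10.6 TPM and integrin beta subunits to 143.7 ± 7.06 TPM.

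Among the laminin alpha chains, Lama5 (chr2:180176373-180225859, minus strand, GRCm38/mm10), the broadly expressed alpha chain of vessel and epithelial basement membranes, stood at 35.3 and 26.6 TPM. Lama2 (chr10:26980036-27619758, minus strand), the alpha chain of muscle basement membrane whose loss causes congenital muscular dystrophy, stood at 29.96 and 29.98 TPM. Lama5 was above Lama2 in replicate 1 and below it in replicate 2. In the direct tables Lama2 was 1.09 and 1.35 times Lama5, above it in both libraries. On the long transcripts defined below, Lama2 was 0.699 and 0.937 times Lama5, and 0.784 and 1.05 times in the direct tables. Their order is therefore not set by these libraries and depends on the quantification. Lama4 (chr10:38965515-39110188, plus strand), the alpha chain of endothelial basement membrane, stood at 13.6 and 16.7 TPM and was below both in each library. Of the summed alpha chain TPM, Lama5 took 39.99% ± 5.88, Lama2 38.9% ± 2.15 and Lama4 19.8% ± 4.00. Lama1, the alpha chain of early embryonic basement membrane, stood at 0.805 and 0.412 TPM on 116 and 110 counts. Lama3, the alpha chain of skin and other epithelia, stood at 0.392 and 0.422 TPM on 152 and 130 counts.

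Lamb2 (chr9:108479736-108490530, plus strand), the beta chain concentrated at neuromuscular synapses and in kidney and vessel basement membranes, was over all transcripts the highest of the 37 genes at 111.4 and 117.6 TPM. It ranked 453 and 443 among protein-coding genes. Lamb1 (chr12:31265234-31329644, plus strand), the more widespread beta chain, stood at 14.2 and 15.6 TPM, and the epithelial beta chain Lamb3 at 5.16 and 4.14 TPM. The 3 beta chains kept this order in both libraries with no overlap, and Lamb2 took 85.4% ± 0.283 of their summed TPM. Lamb2 was 7.69 ± 0.234 times Lamb1 in TPM. On long transcripts alone, those at least 50% as long as the gene's longest coding transcript, it was 5.14 ± 0.411 times Lamb1.

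Lamc1 (chr1:153218922-153332786, minus strand), the gamma chain of most laminins, stood at 26.8 and 31.6 TPM. Lamb2 was 3.93 ± 0.305 times Lamc1. Lamc3 stood at 0.151 and 0.191 TPM on 33 and 36 counts.

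Lama3 and Lamb3, chains known from stratified epithelia, were at 0.407 ± 0.0212 and 4.65 ± 0.720 TPM. None of 6 epithelial marker genes was at 1 TPM or more in both libraries. Their summed level was 1.62 and 1.71 TPM, led by the keratins Krt18 (1.11 ± 0.177) and Krt8 (0.493 ± 0.0713), with Krt5 at 0 counts in both libraries and Epcam at 0 and 1. None of 5 lung epithelial genes reached 1 TPM, with Lamp3 at 0.0302 ± 0.0284, Ager at 0.0201 ± 0.0285 and Sftpc, Sftpa1 and Scgb1a1 at 0 counts in both. A count of 0 allows up to 3 counts. All 5 mesothelial genes, markers of the lining of the heart's surface, were at 1 TPM or more and summed to 23.0 and 22.3 TPM, led by Upk3b (8.83 ± 0.295) and Msln (6.47 ± 0.380).

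Of the 3 integrin alpha subunits that bind laminin, Itga7 (chr10:128933818-128958282, plus strand), the muscle laminin receptor, stood at 51.96 and 53.8 TPM. It ranked 911 and 926 among protein-coding genes and took 46.8% ± 3.26 of the summed integrin alpha TPM. That share was 39.6% ± 3.38 in the direct tables. On long transcripts it was 47.3% ± 2.83, and 47.5% ± 2.61 in the direct tables. Itga6, the laminin receptor of epithelia and endothelium, stood at 9.39 and 12.6 TPM, and Itga3, which binds laminin with the Lama3 or Lama5 chain, at 3.13 and 3.78 TPM. The 3 kept the order Itga7, Itga6, Itga3 in both libraries. Together they made up 59.5% ± 2.04 of the integrin alpha TPM, and 55.6% ± 1.62 in the direct tables.

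Among the 4 subunits that read the RGD sequence of fibronectin, vitronectin and fibrinogen, Itgav stood at 10.9 and 11.7 TPM. The fibronectin receptor Itga5 stood at 9.61 and 10.0 TPM. Itga8, found on smooth muscle and other mesenchymal cells, stood at 0.906 and 1.92 TPM on 159 and 292 counts. Itga2b, the fibrinogen receptor of platelets, stood at 1.10 and 0.996 TPM on 103 and 78 counts. Of 6 platelet genes 2 were at 1 TPM or more, the chemokines Pf4 (9.89 ± 0.0753) and Ppbp (3.78 ± 0.560), and the list summed to 14.0 and 14.7 TPM.

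Of the collagen-binding subunits, Itga1 stood at 7.89 and 9.88 TPM. Itga11, which is known from fibroblasts, stood at 0.443 and 0.261 TPM, Itga2 at 0.171 and 0.0905 and Itga10, known from cartilage, at 0.111 and 0.101. Itga9, a receptor for tenascin and other matrix proteins on smooth muscle and lymphatic endothelium, stood at 8.05 and 13.4 TPM, and its relative Itga4 of leukocytes at 0.473 and 0.453 TPM. The ranges of Itgav, Itga6, Itga9, Itga5 and Itga1, which follow Itga7 in order of mean level, overlapped between neighbours. Itga1 was the lowest of the 5 in both libraries and Itgav lay above Itga5 in both. In the direct tables Itgav, at 6.24 and 6.80 TPM, was instead below Itga5 (9.79 and 9.22) and Itga1 (6.75 and 8.58) in both libraries. The order of the 5 is therefore not set and depends on the quantification.

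The leukocyte subunits were near or under 1 TPM. Itgam, the alpha subunit of macrophages and neutrophils, stood at 1.06 TPM in both libraries and Itgal of lymphocytes at 0.513 and 0.533 TPM. Itgax of dendritic cells stood at 0.0503 and 0.0905 TPM, Itgad at 0.0201 and 0.111 on 2.73 and 3.14 counts, and Itgae of intraepithelial lymphocytes at 0.0101 and 0.0201 on 2 and 3 counts. Macrophage marker genes were all 8 at 1 TPM or more and summed to 80.2 and 93.1 TPM, led by lysozyme Lyz2 (34.6 and 39.5) and the complement gene C1qa (11.6 ± 1.45). None of 8 T and B lymphocyte genes reached 1 TPM, and they summed to 1.73 and 1.36 TPM, led by Cd79b (0.478 ± 0.0215) and Cd3e (0.277 ± 0.292). None of 6 neutrophil genes was at 1 TPM in both, with S100a9 at 0.835 ± 0.470, S100a8 at 0.734 ± 0.384 and Ly6g at 0 counts in both.

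Of the 31-base words in the transcripts of Itgam, 68.3% also occur in another gene. Its exons overlap those of Gm49368 on the same strand over 3450 bases, and that gene was listed at 0 counts in both libraries. The shared portion was 31.8% for Itga10, 26.3% for Itgad and 10.7% for Itgax, and Itgad also overlaps the muscle gene Cox6a2 (1252 and 1212 TPM) on the other strand. The levels of these 4 genes are therefore uncertain. For Lamb2, Itga3 and Itgb1 it was 0.

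Among the beta subunits, Itgb1 (chr8:128685654-128733200, plus strand), the partner of most of the alpha subunits, stood at 94.9 and 105.2 TPM and took 69.6% ± 1.63 of the class. Over all transcripts it was second to Lamb2 among the 37 genes and ranked 529 and 499 among protein-coding genes. Itgb5 (chr16:33829665-33949338, plus strand), a partner of Itgav that binds vitronectin, stood at 33.2 and 30.7 TPM. Itgb6, a partner of Itgav known from epithelia as an activator of latent TGF-beta, stood at 6.59 and 9.14 TPM. These 3 did not overlap, and the other 5 beta subunits were all far lower. The leukocyte subunit Itgb2 stood at 1.14 and 1.27 TPM, Itgb4 of hemidesmosomes at 0.996 and 0.845, and Itgb3 of platelets and osteoclasts at 0.714 and 0.784. Itgb7 of gut-homing lymphocytes stood at 0.664 and 0.342 on 27 and 17 counts, and Itgb8 at 0.483 and 0.402.

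The 12 alpha subunits that can pair with Itgb1 summed to 103.1 and 118.1 TPM, against 94.9 and 105.2 TPM for Itgb1 itself, a ratio of 1.10 ± 0.0258. In the direct tables the ratio was 0.986 ± 0.0504. Over all transcripts, the alpha partners and Itgb1 were at about the same summed level in both quantifications, with ratios on either side of 1. On long transcripts alone the ratio was 1.19 ± 0.0410, and 1.21 ± 0.0304 in the direct tables, above 1 in each library. That basis leaves out the short D transcript of Itgb1 described below. Itgav, which also pairs with Itgb3, Itgb5, Itgb6 and Itgb8, is among the 12.

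Itgb1 and Itga7 both have spliced forms known from striated muscle. The D form of Itgb1 replaces the cytoplasmic end of the common A form and is made in heart and skeletal muscle. The coding bases of both ends are shown because the 2 forms are told apart there. They were read from the GENCODE M21 transcripts on GRCm38/mm10, plus strand, and capitals mark the in-frame codons of the motif Asn-Pro-any-Tyr (NPxY), which binds talin and kindlin, and the stop codon. The A end is at chr8:128732023-128732088 in Itgb1-201 and the D end at chr8:128726983-128727057 in Itgb1-204.
Itgb1 A: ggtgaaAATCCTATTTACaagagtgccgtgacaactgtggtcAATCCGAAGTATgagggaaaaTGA
Itgb1 D: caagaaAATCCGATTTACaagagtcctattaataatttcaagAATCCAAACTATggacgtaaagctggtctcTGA

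The A end has 66 coding bases and the D end 75, with 45 identical columns of 75 in their alignment (60.0%). Each holds 2 NPxY motifs. Of 47780 coding transcripts with an annotated stop codon, 97 (0.203%) had at least 1 such motif in their last 24 codons and 2 (0.00419%) had at least 2, and those 2 were Itgb1-201 and Itgb1-204. Itgb3-201 had 1, and no other integrin beta transcript had one in that window. The window of 24 codons is as long as the D end without its stop codon, so both Itgb1 ends fit in it by choice. Motifs further from the stop codon were not counted. The shares therefore do not show that the paired motif is particular to Itgb1, or that other integrin beta tails lack the motif.

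Transcripts with the D end took 30.3% of Itgb1 TPM in replicate 1 and 27.5% in replicate 2 in the alignment-based tables, and 34.6% and 32.6% in the direct tables. The A end took 69.9% ± 0.403 and 66.0% ± 0.732. The A form was higher than the D form in each library and each quantification, and the D share differed more between quantifications (28.9% ± 2.04 and 33.6% ± 1.36) than between libraries. The D end was carried by Itgb1-204 alone, a partial annotation of 711 bases and 4 exons, against 3815 bases and 16 exons for Itgb1-201. By expected count, 682.4 and 588.9 of the reads of Itgb1, or 6.35% ± 0.474, were on the D transcript. Of its 681 31-base words, 111 occur in no other Itgb1 transcript. The TPM share thus rests on a short transcript, whose annotated length scales it.

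Itga7 has a choice of 2 extracellular exons near its ligand-binding face, X1 and X2, and of 2 cytoplasmic ends, A and B. The X1 and X2 exons are shown whole, as the exons that set the 2 long Itga7 transcripts apart, from the same source and on the plus strand. X1 is at chr10:128941445-128941576 in Itga7-202 and X2 at chr10:128941822-128941941 in Itga7-201, and no base is set in capitals.
Itga7 X1: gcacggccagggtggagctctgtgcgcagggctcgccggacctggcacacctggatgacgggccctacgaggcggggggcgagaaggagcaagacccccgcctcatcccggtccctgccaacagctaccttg
Itga7 X2: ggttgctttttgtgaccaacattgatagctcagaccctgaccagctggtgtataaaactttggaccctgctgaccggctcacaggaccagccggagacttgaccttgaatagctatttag

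The exons have 132 and 120 bases, both whole numbers of codons, and 49.3% of their aligned columns were identical. Itga7-201 with X2 stood at 34.3 and 37.4 TPM, and Itga7-202 with X1 at 4.57 and 4.29 TPM. X2 led X1 in both libraries. Of the TPM on these 2 transcripts, X1 took 11.8% and 10.3% in the alignment-based tables and 12.2% and 10.5% in the direct ones. The X1 share was thus about the same in both quantifications.

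The A end of Itga7 did not have the same level in the 2 quantifications. Its exon, at chr10:128956611-128956723 on the plus strand in Itga7-204, has 113 bases, which is not a whole number of codons, so transcripts with and without it end in different reading frames.
Itga7 A: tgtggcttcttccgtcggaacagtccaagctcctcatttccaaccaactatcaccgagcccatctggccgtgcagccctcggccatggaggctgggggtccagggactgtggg

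In the alignment-based tables the A end took 22.9% and 21.2% of Itga7 TPM (22.1% ± 1.20), against 1.40% and 0.633% by direct quantification (1.02% ± 0.542). The B end took 76.2% ± 1.99 and 97.2% ± 1.54. B was above A in every table, but the size of the A share depended on the quantification. The A end was carried by Itga7-204 alone, a partial annotation of 984 bases and 4 exons, with 408.3 and 336.9 expected counts in the alignment-based tables and 20.1 and 7.95 in the direct tables. Of its 954 31-base words, 142 occur in no other Itga7 transcript.

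**Figure D2:**
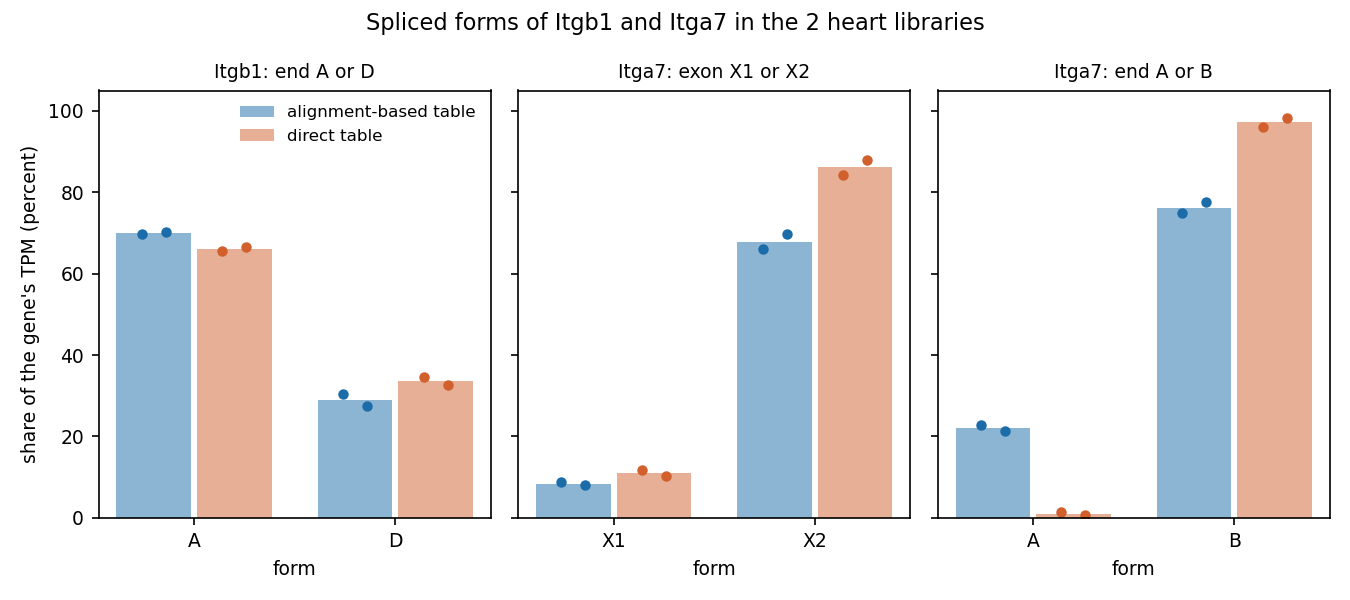
Share of the gene's TPM (percent) on transcripts with each cytoplasmic end of Itgb1, each extracellular exon of Itga7 and each cytoplasmic end of Itga7, with bars for the mean of 2 libraries and points for each library, in alignment-based (blue) and direct (orange) tables. The Itgb1 shares are close in both kinds of table, whereas the A end of Itga7 falls from 22.1% to 1.02%.

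The plot of spliced forms shows all X1 and X2 values as shares of the whole gene, where transcripts with neither exon took 23.8% ± 1.99 in the alignment-based and 2.79% ± 1.54 in the direct tables. The X2 share was 67.8% ± 2.57 and 86.1% ± 2.53 on that basis, and the X1 share 8.39% ± 0.580 and 11.1% ± 0.991.

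Several other levels rested on short transcripts in the same way. Of the 15 genes that reached 5 TPM in both libraries in one or the other kind of table, 2 differed by at least 1.5-fold between the quantifications in both libraries, and both were lower in the direct tables. Over all genes compared, 5.92% passed that rule and 3.42% were lower in the direct tables. A count of 2 in 15 is too small to read against that share. Lama5 had log2 ratios, direct over alignment-based, of -0.92 and -0.82, and Itgav of -0.76 and -0.75. When only long transcripts were summed, none of the genes that still reached 5 TPM passed the rule. Itgav was no longer compared, since its long transcripts stood at 4.98 TPM in replicate 1, and at 4.74 TPM in the direct table. The share over all genes on long transcripts was not computed.

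For Lama5, the alignment-based tables placed 10.8 and 7.31 TPM on Lama5-203 (734 bases) and 4.36 and 3.32 TPM on Lama5-204 (478 bases), both non-coding annotations. The first rested on 264.8 and 154.7 counts. The direct tables listed both at 0. The full coding transcript Lama5-201 of 11388 bases stood at 20.1 and 15.9 TPM in the alignment-based and 18.4 and 14.8 TPM in the direct tables, so the transcript that encodes the chain differed less. For Itgav, Itgav-205 (463 bases) stood at 3.18 and 3.69 TPM on 44.8 and 44.7 counts, and at 0 in the direct tables. For Lamb2, Lamb2-206 (345 bases) stood at 29.8 and 31.5 TPM, and at 0 in the direct tables. The direct tables did place 34.8% and 39.4% of Lamb2 on other short transcripts, so its total changed less, to 102.5 ± 6.56 TPM.

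On long transcripts alone, mean levels were 70.7 TPM for Lamb2, 70.0 for Itgb1, 40.5 for Itga7, 32.0 for Itgb5 and 21.02 for Lamc1. They were 18.0 for Lama5, 14.5 for Lama2, 13.8 for Lamb1, 10.3 for Lama4 and 5.11 for Itgav. The Itgb1 value leaves out the D transcript, which is short but was found by both quantifications. Lamb2 and Itgb1 were close to each other on this basis, and they remained the highest 2 of the 37 genes. Lamb2 was above Itgb1 in replicate 1 (70.5 and 66.1 TPM) but below it in replicate 2 (70.9 and 73.9 TPM). Long transcripts in the direct tables gave the same reversal, at 63.8 and 60.9 TPM in replicate 1 and 64.9 and 69.3 TPM in replicate 2. The order of these 2 genes is therefore not set on long transcripts. Lama2 was lowered from 29.97 to 14.5 TPM, since 53.1% and 50.2% of its level lay on shorter transcripts, of which Lama2-204 and Lama2-206 retain introns.

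**Figure D3:**
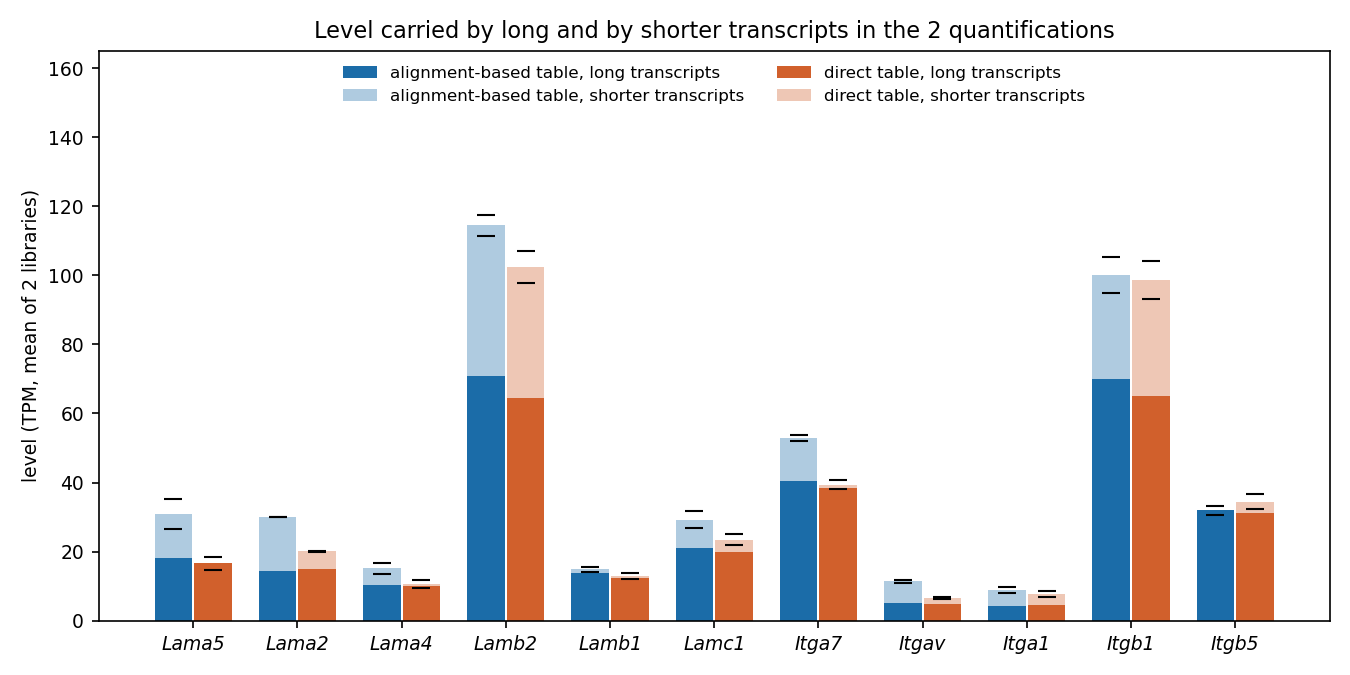
Mean level (TPM) of 11 laminin and integrin genes chosen from those of at least 5 TPM, on long transcripts (dark) and shorter ones (light). Alignment-based tables are blue and direct tables orange, with ticks at the total in each library. Itga5, Itga6, Itga9 and Itgb6 also reached that level and are not drawn, although Itga6 and Itga9 were higher in the direct tables. The dark bars of Lama5, Lama2, Lama4 and Itgav are close in the 2 kinds of table, and Lama5 has 18.0 and 16.6 TPM on long transcripts.

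The plot of long and shorter transcripts shows that the tables differ mainly in the light part for Lama5, Lama2, Lama4, Itga7 and Itgav. For Lamb2 the dark part also differed, at 70.7 ± 0.255 and 64.3 ± 0.744 TPM. For Lama5 the light part was 43.2% and 40.1% of the alignment-based level.

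The replicates were compared as 1 library against 1, by TMM-scaled counts, for the 30 genes whose count averaged 50 or more. The other 7, Lamc3, Itga2, Itga10, Itgax, Itgad, Itgae and Itgb7, were too low. A gene was taken as apart where the higher library exceeded the lower by 25% or more. Of the 30, 6 (20.0%) were apart, beside 11.6% of all 12495 genes compared. Higher in replicate 2 were 4 (5.75% over all genes) and lower 2 (5.81% over all genes). The median absolute log2 ratio was 0.14 for the 30 genes and 0.11 for all genes. Scaling on spike-in totals instead, which shifted the log2 ratio of the median gene to 0.21, gave 7 of the 30 higher and 1 lower, beside 3172 and 234 of all genes.

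Itga8, with 159 and 292 counts, stood 2.04-fold higher in replicate 2, with a counting interval (95%) from 1.67 to 2.49. Itga9, with 2007 and 2694 counts, was 1.49-fold higher (1.40 to 1.58), Itgb6, with 929 and 1163 counts, 1.39-fold (1.27 to 1.52) and Itga6, with 1206 and 1448 counts, 1.33-fold (1.23 to 1.44). These intervals cover counting error only. All 4 were also apart in the direct tables and under spike-in scaling. Past 1.5-fold were Itga8 and Itga11, 2 of the 30 (6.67%), beside 2.84% of all genes.

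Lama5, with 9120.0 and 6192 counts, was lower in replicate 2 at 0.753-fold (0.729 to 0.778), and at 0.762-fold in the direct tables. Under spike-in scaling its log2 ratio was -0.19, under the threshold. Itga11 was at 0.582-fold (0.392 to 0.851) on 82 and 43 counts. Among the genes above 20 TPM, Itga7 (1.01-fold, 0.978 to 1.05), Lama2 (0.987-fold, 0.953 to 1.02), Lamb2 (0.963-fold, 0.941 to 0.985) and Itgb1 (1.06-fold, 1.03 to 1.09) differed least under TMM scaling. Under spike-in scaling the order changed. By size, the log2 ratios were 0.07 for Itgb5, 0.17 for Lamb2, -0.19 for Lama5, 0.20 for Lama2, 0.24 for Itga7, 0.31 for Itgb1 and 0.35 for Lamc1. The median gene was at 0.21.

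**Figure D4:**
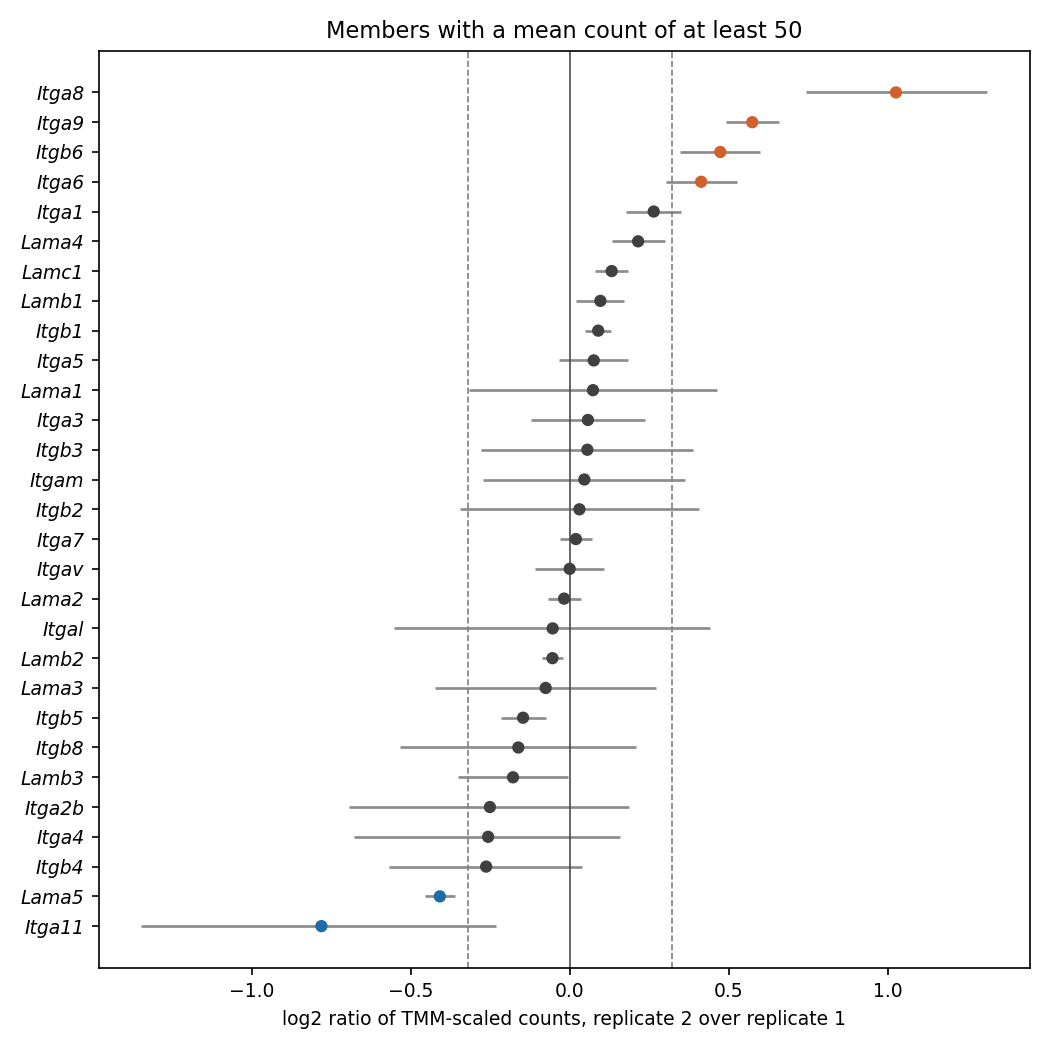
Log2 ratio of TMM-scaled counts, replicate 2 over replicate 1, for the genes reported here whose count averaged 50 or more, with bars for the 95% counting interval and dashed lines where the libraries lie 25% apart. Itga8, Itga9, Itgb6 and Itga6 (orange) lie to the right and Lama5 and Itga11 (blue) to the left.

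The plot of replicate ratios shows intervals that narrow with the count, so that the ratio of Itga11 is far less certain than that of Lama5. Markers of several cell types also differed between the libraries. Of 6 smooth muscle genes 5 were higher in replicate 2 by 25% or more, beside 5.75% over all genes. None was lower, beside 5.81%. Their summed level was 88.1 and 124.7 TPM, with none at 0. The most abundant of the 6, Smtn (48.9 and 51.3 TPM), was the one that was not apart, at 1.10-fold (1.05 to 1.16), and the actin Acta2 (18.1 and 36.0 TPM) came next. Of 5 genes of atrial muscle 4 were higher and none lower, beside the same shares over all genes. Their summed level went from 1030.1 to 1696 TPM, led by the natriuretic peptide Nppa (501.0 and 939.9 TPM) and the light chain Myl7 (249.0 and 374.0 TPM).

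Of 4 adipocyte genes with enough counts all 4 were higher, and the list summed to 19.6 and 30.6 TPM, led by Cfd (15.1 and 21.6) and Cidec (1.68 and 3.32). Of 8 fibroblast genes 2 were higher and none lower, of 8 macrophage genes 1 was higher, of 6 pericyte genes 1 was higher, and of 8 endothelial genes none passed either way, beside 5.75% higher and 5.81% lower over all genes. Under spike-in scaling 7 of the 8 macrophage genes were higher, beside 3172 of 12495 genes. Of 4 skeletal muscle genes with enough counts, Acta1 (71.9 and 116.9 TPM) was higher and 3 were lower, Tnnt3 (3.69 ± 0.983 TPM) among them. Of 3 Schwann cell genes with enough counts 1 was lower, and the list was led by Pmp22 (11.6 ± 1.98) and Mbp (1.97 ± 0.662). The part of these cell types in the ratios of Itga8, Itga9, Itgb6, Itga6 and Lama5 was not tested.

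Around the laminins, 14 of 16 other basement membrane genes were at 1 TPM or more in both libraries, with a median of 10.4 TPM. Highest were the collagen-binding matricellular protein Sparc (65.1 and 82.1), the collagen IV chain Col4a1 (48.6 ± 6.79) and perlecan, Hspg2 (43.6 ± 4.96). Nidogen, which ties laminin to collagen IV, stood at 12.9 ± 1.00 TPM for Nid1 and 6.44 ± 0.353 for Nid2, named for that role. Of the 16, 2 were higher in replicate 2 by 25% or more and none lower, beside 5.75% and 5.81% over all genes, and Col15a1, a collagen of muscle and capillary basement membranes, was 1.62-fold higher (1.52 to 1.73) at 9.64 and 19.6 TPM.

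All 13 laminin receptors other than integrins, with the complex that holds them, were at 1 TPM or more, with a median of 30.3 TPM. Rpsa, a ribosomal protein that also serves as a laminin receptor, stood at 168.3 ± 15.1 TPM. Dag1, the dystroglycan that binds the Lama2 chain, stood at 96.7 ± 2.06. Dag1 was at about the level of Itgb1. None of the 13 was apart between the libraries by 25%, beside 11.6% over all genes.

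Of 22 ligands of integrins other than laminins, 16 were at 1 TPM or more, with a median of 5.32 TPM. Highest were the milk fat globule protein Mfge8 (43.3 ± 4.56), a ligand of Itgav, the matricellular protein Ccn1 (20.3 ± 1.26) and the fibrillar collagen Col3a1 (17.3 ± 8.54). Of the 17 with enough counts, 10 were higher in replicate 2 by 25% or more, beside 5.75% over all genes. None was lower, beside 5.81%. The median log2 ratio of the 17 was 0.38, beside -0.01 over all genes. Col3a1 was 1.81-fold higher (1.72 to 1.91) and periostin, Postn, 1.59-fold (1.37 to 1.84). The collagen and periostin genes of this list are made by fibroblasts, and the fibroblast marker list stands above with 2 of 8 higher. Those 2 were Lum and Col1a1, named after their values were seen, and Col1a1 is also one of the 10 ligands, so the lists share it. Their part was not tested.

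Of 29 activators of integrins and linkers to actin, 27 were at 1 TPM or more, with a median of 21.2 TPM. Highest were the Z-disc actinin Actn2 (566.7 ± 61.2), tensin, Tns1 (251.3 ± 9.16), and kindlin, Fermt2 (72.9 ± 3.22), which binds the NPxY region of the Itgb1 ends shown above. The talins Tln1 (32.8 ± 2.28) and Tln2 (23.8 ± 1.00), named for the same contact, were both below it. Fermt1, the kindlin of epithelia, was at 0 counts in both libraries. Of the 27 with enough counts 1, Flna (19.1 and 23.2 TPM), was higher in replicate 2 by 25% or more and none lower, near the 5.75% over all genes.

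All 19 kinases and adaptors that signal from integrins were at 1 TPM or more, with a median of 9.32 TPM. The tetraspanins Cd81 (139.7 ± 2.27) and Cd151 (113.1 ± 2.10), the second of which binds the laminin-binding integrins, and the caveolar protein Cav1 (56.8 ± 9.07) were highest. Focal adhesion kinase, Ptk2, named as the central kinase of the list, stood at 9.32 ± 0.828 TPM. Of the 19, 1 was higher in replicate 2 by 25% or more and none lower, again near the 5.75% over all genes. Flna and the single gene here, the adaptor Nedd9 (4.54 and 5.77 TPM), were named after their values were seen.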

How the data were processed

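Each library came with 3 deposited tables, of genes and of transcripts from a transcriptome alignment and of transcripts directly from reads, on mm10 with GENCODE M21, per the files' listings. The deposited expected counts are the authors' unnormalised estimates. The authors' TPM values sum over genes, spike-ins and further entries of a table. The alignment-based tables also give, as deposited, each transcript's percent of its gene. The aligner, quantifiers and versions are not given in the sources used here, nor is whether counting used the strand.

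TPM were rescaled to sum over mouse genes without spike-ins (0.412% and 0.357% of counts) and 26248 numeric entries with 0 and 1 counts. Direct tables were summed per gene. Ratios used rounded counts scaled by TMM in edgeR 4.0.16 (R 4.3.3) with a prior count of 2 and no test, a mean count of at least 50 and exact binomial 95% intervals. Tables were compared with a pseudocount of 0.5. DESeq2 1.42.0 gave alternative size factors. Other steps used Python 3.11.15, pandas 2.3.3 and numpy 2.4.6. The ratio step was tested on simulated data.

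The genes, the partner and marker lists and the alternatives were chosen with earlier results of these data known, and the atrial list was added after seeing them. All laminin and integrin genes were named, except where a gene is not reported here. Of each partner list the 3 highest genes and any past 1.5-fold were named, of each marker list the 2 highest, and of Itga7 and Itgb1 the transcripts with at least 5% of the gene; any other gene is marked where it stands. The list symbols Nov and Cyr61 stand in the tables as Ccn3 and Ccn1. Transgene transcripts, CAST alleles and protein sequences were not analysed here.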

Additional observations from a re-analysis of the deposited data

How the results depend on the processing

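The number of laminin and integrin genes at 1 TPM or more was 20 and lay between 15 (at 5 TPM) and 25 (at 0.5 TPM) over its alternatives. It was 21 in each library alone. Their median was 1.14 to 1.92 TPM with 1 library left out and 10.8 TPM over genes of at least 1 TPM in either library. The Lamb2 share of laminin beta TPM was 86.3% in the direct tables, 81.0% by expected counts and 80.3% on long transcripts, and 85.2% to 85.6% with 1 library left out. The Itgb1 share was 67.0% by expected counts and 61.8% on long transcripts, and 68.4% to 70.7% with 1 library left out. Of genes apart between libraries, 2 were past 1.5-fold and 1 past 2-fold, and counts under other scalings, minima and prior counts lay between 6 and 9. Between quantifications, 6 genes were past 25% and 0 past 2-fold, and 2 were past 1.5-fold with either library left out. On long transcripts 0 were past 1.5-fold, with Itgav too low there to be compared. The direct tables gave an Itgb1 D share of 33.6% and Itga7 shares of 11.1% for X1, 86.1% for X2, 1.02% for A and 97.2% for B. With 1 library left out these were 27.5% to 30.3% for D, 7.98% to 8.80% for X1, 66.0% to 69.6% for X2, 21.2% to 22.9% for A and 74.8% to 77.6% for B. Under spike-in scaling, genes apart by 25% rose to 9 of the basement membrane list and 3 of the other laminin receptors. They rose to 14 of the other integrin ligands, 10 of the linkers and 3 of the kinases and adaptors. Over all 12495 genes, 3172 were higher and 234 lower under that scaling. Of the kinases and adaptors, the direct tables gave 2 apart. The cause was not tested, except that fewer transcripts enter the sums on long transcripts. The long-transcript setting was chosen after seeing the data. Of the alternative values, 21 moved and 58 did not. A count was taken as moved where it changed by more than 1.5-fold or to 0. A median or share was taken as moved where it changed by at least the SD of the 2 libraries. With 2 libraries, leaving 1 out always changes a median or share by less than that SD. Those values could not move, so the 58 do not measure robustness. No paired analysis was possible because the series holds 1 group. Depth limits the genes under about 50 counts, whose ratios were not read.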

Other observations

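Transcript choice within other integrin genes also differed between the quantifications. Itgb5-202, of 3282 bases, stood at 16.1 and 15.3 TPM in the alignment-based and 7.31 and 6.85 TPM in the direct tables. Itgb5-201, of 3056 bases, stood at 7.52 and 8.61 TPM against 13.6 and 13.9 TPM. The level of Itgb5 as a whole was close in both, at 31.97 ± 1.75 and 34.5 ± 3.05 TPM, so the total was steadier than its division among long transcripts. Itga9 moved in the direction opposite to Lama5, with 10.7 ± 3.80 TPM in the alignment-based and 15.9 ± 5.38 TPM in the direct tables. The direct tables placed 3.03 and 5.13 TPM on Itga9-204, a non-coding annotation of 650 bases that the alignment-based tables listed at 0.614 and 1.91 TPM. The coding transcript Itga9-201 stood at 7.44 and 11.5 TPM and at 6.74 and 9.99 TPM, and was higher in replicate 2 in both.

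Itga6 divided its level over Itga6-201 (3.54 and 5.36 TPM), Itga6-202 (1.29 and 1.69 TPM) and the non-coding Itga6-203 (3.69 and 4.94 TPM), and each was higher in replicate 2. Itgb6 divided its level over Itgb6-201 (3.25 and 4.12 TPM) and Itgb6-202 (2.95 and 4.59 TPM), both coding, and both were higher in replicate 2. Lama1 was 1.05-fold in counts between the libraries (0.803 to 1.38) although its TPM went from 0.805 to 0.412. In replicate 1 its short transcript Lama1-202 of 565 bases stood at 0.372 TPM on 6.68 counts.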
